A study of Mus musculus with 6 samples.

Results

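Immediate early genes are the genes a cell switches on within minutes of a stimulus, before any new protein has been made. Here 10 were examined by name, and each has at least 1 probe on the array. They are Fos, Fosb, Jun and Junb, which encode subunits of the dimeric transcription factor AP-1, Atf3, which encodes a stress-induced partner of that family, Egr1 and Egr2, which encode zinc finger transcription factors, Nr4a1, which encodes an orphan nuclear receptor, Ier2, which encodes a short-lived nuclear protein, and Dusp1, which encodes a phosphatase that switches MAP kinases off. The 10 genes had 11 probes, of 17178 named genes and 41174 gene probes. Probes were matched to genes by RefSeq accession. The rule that lists the genes uses no measured value, but the genes were chosen with earlier results of these data known.

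The study set Perp-null molars against wild-type molars. Perp is a target gene of p53 and p63, and its tetraspan membrane product sits in the desmosomes of stratified epithelia. Both groups came from 129/Sv mice labelled male, taken at postnatal day 0, and the tissue was the germ of the first molar of the lower jaw. On the genotype, the labels say Perp-null without naming the allele. The Perp-null label is on 3 arrays (PN1, PN2 and PN3), and 3 carry the wild-type label (WT1, WT2 and WT3). The mutation is carried by the whole animal as far as the labels say, and the tooth germ is a mixture of cell types, so fewer cells of a type and less RNA per cell cannot be told apart.

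Immediate early transcription is driven by pre-existing factors that are switched on by kinases. MAP kinases act through serum response factor and its ETS partners at the CArG box of the serum response element, and CREB acts at the cyclic AMP response element. The induced proteins then switch on a later set of genes, and phosphatases such as the Dusp1 product end the signal. The same genes are known to respond to growth factors, to stretching and to the cutting and handling of tissue, so their level at RNA extraction can also depend on how a sample was collected.

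Shown are 2 promoters of the genes with the largest differences in the authors' table of values, Fosb and Egr2, and 2 of genes that moved together between arrays in the scanner files, Fos and Dusp1. They run from 250 bases before to 50 after the start of transcription, 5′ to 3′ on the gene's strand, from RefSeq on assembly GRCm38.p6. Fosb lies at chr7:19309996-19310295 on the minus strand, with an EGR site in capitals 50 bases before the start. Egr2 lies at chr10:67537619-67537918 on the plus strand, with a CArG box in capitals 72 bases before the start, and this is 1 of several start sites listed for the gene. Fos lies at chr12:85473640-85473939 on the plus strand, with a TATA box in capitals 33 bases before the start. Dusp1 lies at chr17:26508423-26508722 on the minus strand, with a cyclic AMP response element in capitals 143 bases before the start.
Fosb: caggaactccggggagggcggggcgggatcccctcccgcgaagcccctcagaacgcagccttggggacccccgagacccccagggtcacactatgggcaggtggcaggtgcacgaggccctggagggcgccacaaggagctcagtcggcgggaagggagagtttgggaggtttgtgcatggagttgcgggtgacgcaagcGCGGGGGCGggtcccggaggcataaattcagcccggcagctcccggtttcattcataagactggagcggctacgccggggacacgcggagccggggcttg
Egr2: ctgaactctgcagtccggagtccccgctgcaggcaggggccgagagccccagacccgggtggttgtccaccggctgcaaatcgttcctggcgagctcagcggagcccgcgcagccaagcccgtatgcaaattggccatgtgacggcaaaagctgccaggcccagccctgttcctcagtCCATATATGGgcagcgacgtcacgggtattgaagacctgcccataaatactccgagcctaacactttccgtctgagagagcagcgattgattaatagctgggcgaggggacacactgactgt
Fos: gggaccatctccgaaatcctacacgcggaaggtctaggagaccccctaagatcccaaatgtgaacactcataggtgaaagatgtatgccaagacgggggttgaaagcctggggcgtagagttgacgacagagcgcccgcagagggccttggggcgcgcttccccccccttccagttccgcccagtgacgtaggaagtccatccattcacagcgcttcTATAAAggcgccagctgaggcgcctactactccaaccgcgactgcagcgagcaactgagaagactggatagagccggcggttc
Dusp1: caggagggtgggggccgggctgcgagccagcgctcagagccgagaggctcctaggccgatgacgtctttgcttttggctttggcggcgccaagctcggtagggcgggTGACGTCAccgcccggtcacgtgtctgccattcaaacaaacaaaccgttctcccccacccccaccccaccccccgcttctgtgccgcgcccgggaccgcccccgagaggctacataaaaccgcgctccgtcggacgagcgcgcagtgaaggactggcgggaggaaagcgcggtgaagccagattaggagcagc

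Promoters of 8 of the 10 genes, all but Egr1 and Ier2, were in the table of promoters used. Both strands were searched, for exact letters except for the CArG box, which was marked in more than 1 spelling. A gene with several promoters, such as Egr2, was counted if any of them matched, while the percentages are over single promoters. The EGR site (GCGGGGGCG) was in 2 of the 8, Fosb and Nr4a1, against 2.91% of all 32851 promoters. The CArG box was in 1 of the 8 (Egr2), against 1.63% of all promoters. The cyclic AMP response element (TGACGTCA) was in 1 of the 8 (Dusp1), against 1.79%. The TATA box (TATAAA) was in 2 of the 8, Fos and Junb, against 13.6%, and the AP-1 site (TGAGTCA) was in none of them, against 5.2%. A match is a description of letters in this window, and these motifs were not set against any measured value.

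The deposit holds the values in 2 forms, and they do not carry the same labels. The scanner files hold 1 array per sample. The authors' value table holds 1 column per sample on a log2 scale, and its columns are nearly alike once sorted, with a median difference of 0.02 between them. Compared by rank over all gene probes, 5 of the 6 columns matched 1 scanner file with a Spearman correlation of 1.0, and only 1 of these, column WT1, matched the file of its own sample. Column PN1 matched array WT2, column PN3 matched array PN2, column WT2 matched array WT3 and column WT3 matched array PN1. Column PN2 matched no scanner file (its highest rank correlation was 0.97977), and array PN3 matched no column.

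The targeted gene was read first, since it checks the labels. In the value table Perp had a log2 signal of 7.51, 8.24 and 7.26 in columns PN1, PN2 and PN3, against 17.01, 16.95 and 16.98 in columns WT1, WT2 and WT3, so every column followed its label. In the scanner files, relative to each array's 75th percentile, Perp had log2 values of 5.87, -6.81 and 5.97 on arrays PN1, PN2 and PN3, against 5.96, -5.06 and 5.91 on arrays WT1, WT2 and WT3. Arrays PN1, PN3 and WT2 therefore go against their labels. The male label was also checked. The Y-linked gene Ddx3y had a log2 signal of 5.94, 11.64 and 6.67 in columns PN1, PN2 and PN3, against 11.72, 11.57 and 6.03 in columns WT1, WT2 and WT3, and Eif2s3y and Kdm5d had the same 3 low columns. Xist, transcribed from the inactive X chromosome, had 9.27, 6.25 and 10.14 in columns PN1, PN2 and PN3, against 5.63, 5.68 and 8.16 in columns WT1, WT2 and WT3. Columns PN1, PN3 and WT3 go against the male label. Results are therefore given from both sources, as "arrays labelled Perp-null" or "labelled wild type" for the scanner files and as columns for the value table. Scanner arrays were not moved between groups.

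Signal was limited by background rather than by saturation. Between 72.8% (PN2) and 82.3% (PN3) of gene probes were well above background on an array, and no spot was saturated. The median signal of the negative control spots was 127, 32 and 65.5 on arrays PN1, PN2 and PN3, against 90, 37.5 and 80 on arrays WT1, WT2 and WT3. Set by the columns they matched, the arrays behind columns PN1 and PN3 had 37.5 and 32, against 90, 80 and 127 for the arrays behind columns WT1, WT2 and WT3. Background thus differed with genotype for the 5 matched columns of the value table, whose values are not background-subtracted, and its part in the differences there was not tested. Slide and scan coincide with the label for the scanner files. By the match, columns PN1, WT1 and WT2 came from slide 1 and columns PN3 and WT3 from slide 2, and the slide of column PN2 is not known. The arrays behind columns PN1 and PN3 were both at position 2 of their slide. Those behind columns WT1, WT2 and WT3 were at positions 1, 3 and 1. Position and genotype therefore cannot be told apart among the 5 matched columns.

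In the scanner files under their labels, no immediate early gene was called as different between the groups. None of the 10 passed an adjusted p of 0.05 by limma (Benjamini-Hochberg over 26677 features), and the background was 0.0%, with 0 features called in all. None had an unadjusted p under 0.05 either, against 630 of all features (2.36%). The arrays labelled Perp-null had the higher mean for 3 of the 10 genes (39.0% of all features), and the median log2 difference over the 10 was -0.14, against -0.085 over all features. For 1 gene, Atf3, every array labelled Perp-null was above every array labelled wild type, as for 3.57% of features, and no gene was apart the other way, as 3.49% of features were. With the replicate number as a block the count of features called was 1.

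In the value table all 10 genes had the higher mean in Perp-null columns, against 51.2% of all features, and the median log2 difference was 0.40, against 0.013 over all features. One gene, Fosb, passed the adjusted p of 0.05 by limma, where 8.64% of all features were called higher and 23.6% in either direction. The number of features called at that threshold moved with single columns and with the setting. It was 6289 in all, against 1 without column PN2, 786 without PN3, 2688 without WT3 and 1 with the replicate number as a block. Features with an unadjusted p under 0.05 by limma moved less. They were 9569 in all, 7974 without PN2 and 10624 with the replicate block. Fosb and Egr2 had an unadjusted p under 0.05 and were the 2 genes whose Perp-null columns all lay above the wild-type columns, against 35.9% of features at that p in either direction and 18.7% apart in that way. No gene was apart the other way, against 24.5%. A share of 1 gene called in 10 is near the background. The count of 10 higher means is a description: several of the genes vary together between samples, and 1 column can raise all of them. Within slide 1, column PN1 was above the mean of columns WT1 and WT2 for 7 of 10 genes (median 0.34). Within slide 2, column PN3 was above column WT3 for 10 of 10 (median 0.58). Slide 2 thus sets 1 column against 1, and WT3 was the lowest column for 6 of the 10 genes. The share of all features higher within each slide was not taken. With slide as a block over the 5 matched columns none of the 10 was called by limma, and 1 feature was called in all.

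**Figure D1:**
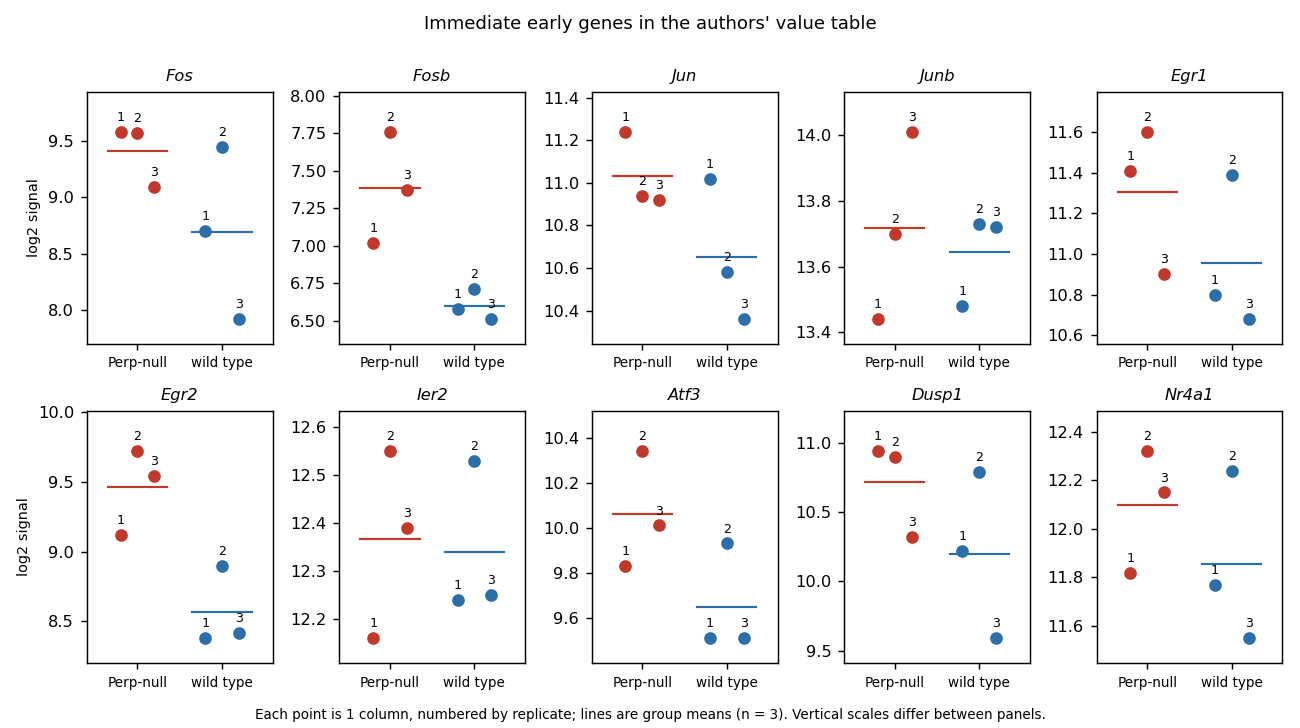
Log2 signal of the 10 immediate early genes in the authors' value table, with 3 Perp-null columns (red) left of 3 wild-type columns (blue) and lines at the group means. Only Fosb and Egr2 have groups that do not overlap, and column WT3 is the lowest for 6 genes.

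Fosb encodes an AP-1 subunit that pairs with Jun proteins. It had a log2 signal of 7.02, 7.76 and 7.37 in columns PN1, PN2 and PN3, against 6.58, 6.71 and 6.51 in columns WT1, WT2 and WT3. Every Perp-null column lay above every wild-type column, and the wild-type columns were close to each other, with a mean of 7.38 ± 0.37 in Perp-null and 6.60 ± 0.10 in wild type (SD, n = 3 each). The log2 difference was 0.78 with a standard error of 0.20 (limma, adjusted p 0.0294). Only 1 of the 3 arrays behind the wild-type columns, that of WT2, measured Fosb well above background, so no fold is given, and the narrow spread of the wild-type columns is one of mostly unmeasured values. The call was lost without column PN2 (adjusted p 0.075), PN3 (0.072), WT1 (0.079), WT2 (0.052) or WT3 (0.096) and kept without PN1 (0.0176). Fosb was the dimmest of the genes against its array's background: it was well above background on 4 of the 6 arrays, and not on arrays PN1 and WT1, which are behind columns WT3 and WT1. With slide as a block, over the matched columns, its difference was 0.58 (adjusted p 0.107). Among the 10, Fosb alone was not tested among probes well above background on all 6 arrays, where 7.61% were called and none of the 9 other genes was.

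On the scanner files the difference of Fosb was within its spread. It had -4.05, -6.45 and -5.48 on arrays PN1, PN2 and PN3, against -5.05, -6.09 and -4.73 on arrays WT1, WT2 and WT3, in log2 relative to the 75th percentile. The groups overlapped, and the log2 difference of -0.04 had a standard error of 1.15 (limma, adjusted p 1.0). The arrays behind columns PN1 and PN3 were the 2 lowest on this scale, at -6.09 and -6.45, against -5.05, -4.73 and -4.05 for those behind columns WT1, WT2 and WT3. After quantile normalization of the same processed signal the 2 had 5.94 and 6.58, against 4.98, 5.45 and 4.86. The order of the same 5 hybridisations thus turned round with the scaling between arrays. Without arrays PN1, PN3 and WT2, whose Perp signal goes against the label, Fosb had a log2 difference of -1.56 (limma, adjusted p 0.00242). Fosb was not well above background on array WT1, 1 of the 3 arrays left. It was on arrays PN2 (-6.45) and WT3 (-4.73), which had 6.58 and 5.45, the other way round, after quantile normalization. The fit without the 3 arrays thus had 1 measured array on each side, with a direction that turned with the scaling. That fit sets array PN2 alone against WT1 and WT3 and assumes that a lone array varies like the others, and it called 45.4% of all features, with 39.7% of all features called lower. None of the other 9 genes was called in it. Their differences ran from -0.15 (Ier2) to 0.36 (Jun), and the median over the 10 was 0.16.

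Fos encodes the founding AP-1 partner of Jun. It had a log2 signal of 9.58, 9.57 and 9.09 in columns PN1, PN2 and PN3, against 8.70, 9.45 and 7.92 in columns WT1, WT2 and WT3. Wild-type columns spread more widely than Perp-null columns, and WT2 lay above PN3, so the groups overlapped. The log2 difference of 0.72 had a standard error of 0.40 (limma, adjusted p 0.248). By scanner file Fos had -2.30, -1.92 and -1.80 on arrays PN1, PN2 and PN3, against -2.27, -1.58 and -1.57 on arrays WT1, WT2 and WT3. The lowest array of each labelled group was its replicate 1, and the difference of -0.20 had a standard error of 0.34 (adjusted p 1.0).

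Jun encodes the main dimer partner of the Fos proteins. It had 11.24, 10.94 and 10.92 in columns PN1, PN2 and PN3, against 11.02, 10.58 and 10.36 in columns WT1, WT2 and WT3, with WT1 above 2 of the Perp-null columns. The log2 difference was 0.38 with a standard error of 0.23 (limma, adjusted p 0.285). Its scanner values were -0.35, 0.16 and -0.16 on arrays PN1, PN2 and PN3, against 0.02, 0.45 and -0.41 on arrays WT1, WT2 and WT3. Each labelled group spanned zero there, and the difference was -0.13 with a standard error of 0.26.

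Junb, an AP-1 subunit that can restrain Jun, was the most even of the AP-1 genes and the only gene with 2 probes. Its brighter probe had 13.44, 13.70 and 14.01 in columns PN1, PN2 and PN3, against 13.48, 13.73 and 13.72 in columns WT1, WT2 and WT3, with a log2 difference of 0.07 and a standard error of 0.17 (limma, adjusted p 0.816). Its other probe had 12.85, 13.19 and 13.20 in columns PN1, PN2 and PN3, against 12.76, 13.02 and 12.94 in columns WT1, WT2 and WT3. The brighter probe had scanner values of 2.43, 2.83 and 2.61 on arrays PN1, PN2 and PN3, against 2.41, 2.55 and 2.79 on arrays WT1, WT2 and WT3. Groups overlapped for the brighter probe in both sources, and the 2 probes differed in sign on the scanner files, at 0.04 and -0.04.

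Atf3 encodes a bZIP factor that is induced by many kinds of cell stress. It had the highest log2 difference of the 10 on the scanner files. With Egr2 and the brighter probe of Junb, it was 1 of 3 with the higher mean in arrays labelled Perp-null and in Perp-null columns. Arrays PN1 and PN3 go against that label by their Perp signal, so the 2 sources do not compare the same groups. Atf3 had -0.77, -1.06 and -1.08 on arrays PN1, PN2 and PN3, against -1.32, -1.48 and -1.12 on arrays WT1, WT2 and WT3. The groups were apart by little, with PN3 just above WT3, and the difference of 0.34 had a standard error of 0.23 (limma, adjusted p 1.0). Its columns held 9.83, 10.34 and 10.01 for PN1, PN2 and PN3, against 9.51, 9.93 and 9.51 for WT1, WT2 and WT3. Column WT2 lay above PN1 there, and the difference of 0.41 had a standard error of 0.25 (adjusted p 0.297).

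Egr2, which encodes a zinc finger factor best known from myelinating Schwann cells and the hindbrain, had the largest difference of the 10 in the value table. It had 9.12, 9.72 and 9.54 in columns PN1, PN2 and PN3, against 8.38, 8.90 and 8.42 in columns WT1, WT2 and WT3. All Perp-null columns were above all wild-type columns, by 0.89 on average with a standard error of 0.28, a 1.86-fold difference that missed the threshold (limma, adjusted p 0.0556). The call turned with the setting: the adjusted p was 0.0216 with array weights, 0.0354 without trend, 0.0435 with the mean of probes and 0.047 with no filter, against 0.207 without column PN2 and 0.228 with slide as a block. The scanner groups overlapped, with -1.61, -2.08 and -2.70 on arrays PN1, PN2 and PN3, against -2.41, -2.52 and -2.05 on arrays WT1, WT2 and WT3. The difference there was 0.20 with a standard error of 0.40.

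Array PN1, behind column WT3, was the highest for Egr2 on the percentile scale and array WT2, behind column PN1, among the lowest. After quantile normalization the arrays behind columns PN1 and PN3 had 8.90 and 9.20, against 8.18, 8.79 and 8.30 for those behind columns WT1, WT2 and WT3. As with Fosb, the order therefore depended on how arrays were scaled to each other. Split by Y-linked signal, the columns of both genes must keep the same side, since all their Perp-null columns lay above all wild-type columns. The values below are therefore a description, and the part of sex was not tested. Egr2 had 9.12 and 9.54 in PN1 and PN3 against 8.42 in WT3, and 9.72 in PN2 against 8.38 and 8.90 in WT1 and WT2. Fosb had 7.02 and 7.37 against 6.51, and 7.76 against 6.58 and 6.71, in the same columns.

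Egr1 encodes the most widely induced member of that zinc finger family. It had 11.41, 11.60 and 10.90 in columns PN1, PN2 and PN3, against 10.80, 11.39 and 10.68 in columns WT1, WT2 and WT3. The groups overlapped, and the log2 difference was 0.35 with a standard error of 0.27 (limma, adjusted p 0.417). For the scanner files Egr1 had -0.31, 0.44 and 0.03 on arrays PN1, PN2 and PN3, against -0.19, 0.83 and 0.46 on arrays WT1, WT2 and WT3. Here the mean was lower in the arrays labelled Perp-null, by -0.32 with a standard error of 0.31.

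Nr4a1 encodes a receptor that acts without a known ligand in many cells. It had 11.82, 12.32 and 12.15 in columns PN1, PN2 and PN3, against 11.77, 12.24 and 11.55 in columns WT1, WT2 and WT3, a difference of 0.24 with a standard error of 0.22 (limma, adjusted p 0.507). Scanner values were 0.49, 0.99 and 0.68 on arrays PN1, PN2 and PN3, against 0.84, 0.81 and 1.28 on arrays WT1, WT2 and WT3. The groups overlapped in both sources, and the means differed in opposite directions.

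Ier2 was the steadiest gene. It had 12.16, 12.55 and 12.39 in columns PN1, PN2 and PN3, against 12.24, 12.53 and 12.25 in columns WT1, WT2 and WT3, a log2 difference of 0.03 with a standard error of 0.16 (limma, adjusted p 0.935). Scanner values were 1.17, 1.31 and 1.30 on arrays PN1, PN2 and PN3, against 1.34, 1.27 and 1.58 on arrays WT1, WT2 and WT3. Its SD over the 6 arrays was 0.14, the smallest of the 10 genes in that source, and 0.16 in the value table, again the smallest.

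Dusp1, the feedback phosphatase, was the most variable of the genes well above background on all 6 arrays in the scanner files, with an SD of 0.53. It had -1.15, -0.24 and -0.45 on arrays PN1, PN2 and PN3, against -0.91, 0.33 and -0.18 on arrays WT1, WT2 and WT3. Replicate 1 was low in both labelled groups. Dusp1 had a log2 signal of 10.94, 10.90 and 10.32 in columns PN1, PN2 and PN3, against 10.22, 10.79 and 9.59 in columns WT1, WT2 and WT3. The difference of 0.52 had a standard error of 0.34 (limma, adjusted p 0.325), and column WT2 lay above PN3.

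**Figure D2:**
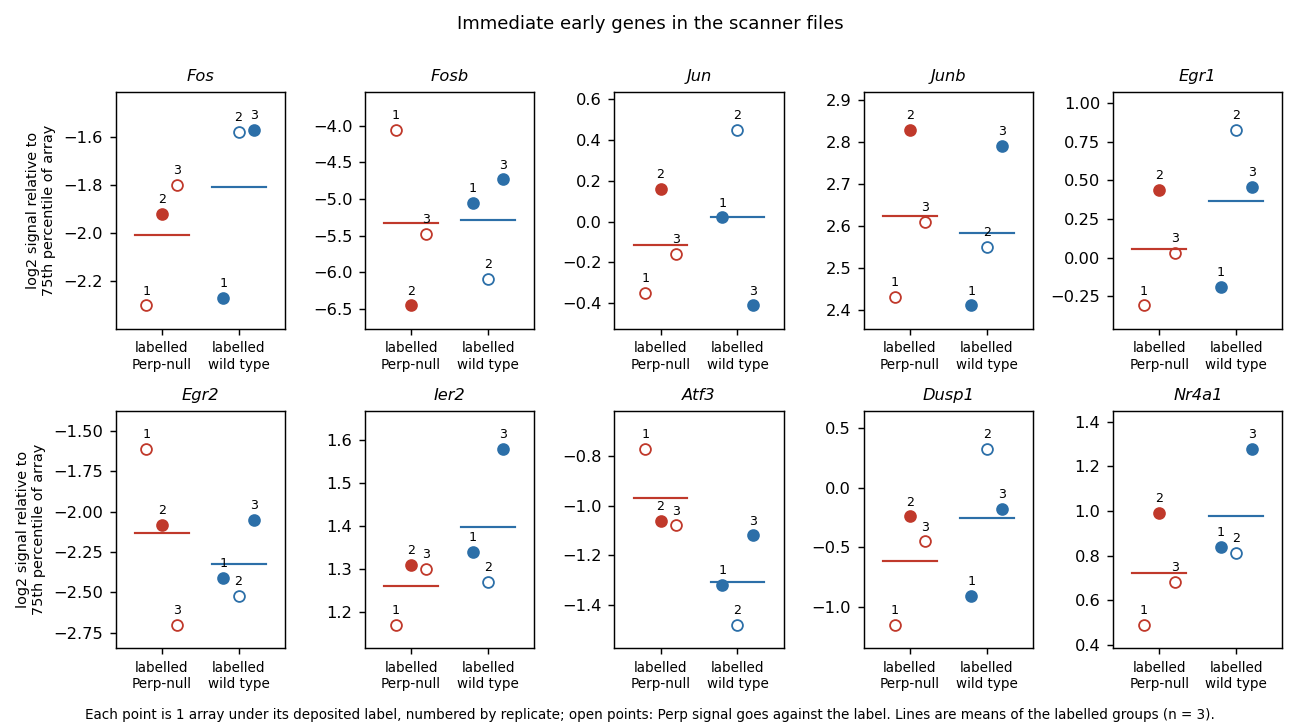
Log2 signal of the 10 immediate early genes relative to the 75th percentile of each scanner array, with the arrays labelled Perp-null (red) left of those labelled wild type (blue). Open points are arrays PN1, PN3 and WT2, whose Perp signal goes against the label, and the labelled groups overlap for all genes except Atf3.

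**Figure D3:**
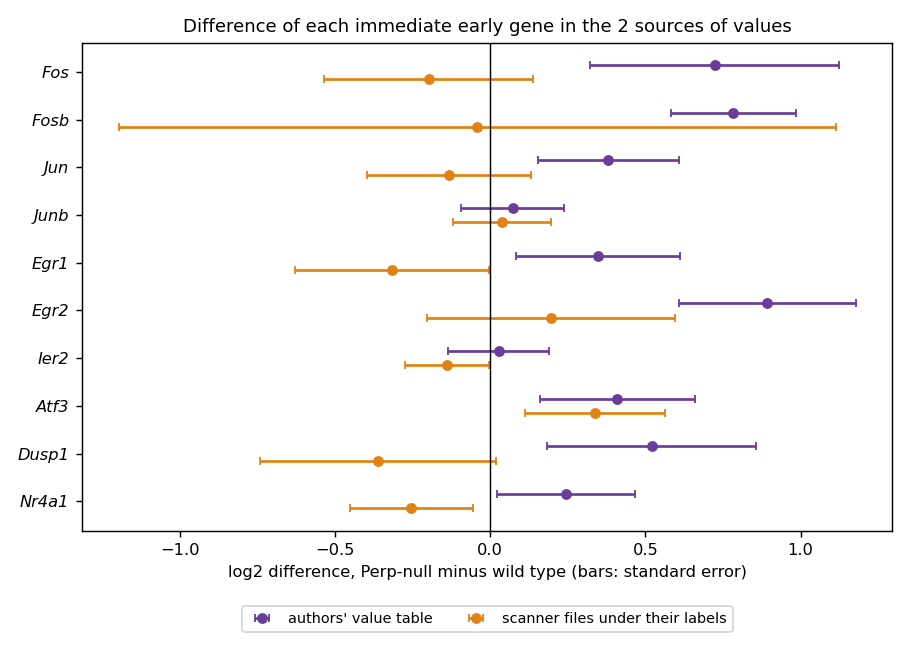
Log2 difference of each gene, Perp-null minus wild type, with its standard error (3 against 3), in the value table (purple) and in the scanner files under their labels (orange). All 10 are above 0 in the value table, from 0.03 for Ier2 to 0.89 for Egr2, and 3 of 10 are above 0 in the scanner files.

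The genes did not vary as 1 block across arrays. Fos, Egr1 and Dusp1 shared a pattern on the scanner files, below their own means on PN1 and WT1 and above them on WT2 and WT3. Dusp1 deviated by -0.72 on PN1 and -0.48 on WT1, and by 0.76 on WT2 and 0.25 on WT3. Egr1 deviated by -0.52 and -0.40, and by 0.62 and 0.25, on the same arrays. Fosb, Egr2 and Atf3 ran the other way on PN1 and WT2: Egr2 deviated by 0.62 on PN1 and -0.29 on WT2, and Atf3 by 0.37 and -0.34. The median deviation over the 10 genes was -0.24, 0.15 and -0.07 on arrays PN1, PN2 and PN3, against -0.18, -0.05 and 0.25 on arrays WT1, WT2 and WT3, and array WT3 was above the gene's own mean for 9 of the 10. All features had a median deviation of 0.32, -0.27 and 0.06 on arrays PN1, PN2 and PN3, against 0.18, -0.28 and 0.16 on arrays WT1, WT2 and WT3 on that scale.

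By value table column, PN2 carried the highest value of 6 of the 10 genes and was above the gene's own mean for all 10, and column WT3 carried the lowest value of 6. The median deviation over the 10 genes was 0.07, 0.46 and 0.12 in columns PN1, PN2 and PN3, against -0.29, 0.13 and -0.47 in columns WT1, WT2 and WT3. The median over the 10 differences kept its sign without any 1 column: it was 0.22 without WT3, 0.35 without PN2 and 0.56 without WT2. Leaving out column WT3 made the log2 difference of several genes smaller. That of Fos went from 0.723 to 0.338 and that of Dusp1 from 0.52 to 0.215. Column PN2, which matched no scanner file, could not be examined under another processing.

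The 5 matched hybridisations were read under several scalings. Scalings move all features too, so the median deviation of the 10 genes is given minus that of all features tested. On this relative scale the array behind column PN1 was above 0 under all 5 settings, between 0.097 (value table) and 0.42 (normexp with 75th percentile), and that behind column PN3 likewise, between 0.12 and 0.42. Part of this comes from the subtraction. Before it, the 10 genes on the array behind column PN1 were at -0.045 under 75th percentile scaling and 0.029 under normexp with 75th percentile. All features were at -0.279 and -0.391 there. Under quantile normalization the 10 genes were at 0.361 and all features at -0.025. The array behind column WT1 was below 0 under all 5, between -0.36 and -0.18, and that behind column WT3 between -0.56 and -0.33. The array behind column WT2 was above 0 under 4 settings, between 0.09 and 0.16, and at -0.31 under normexp with 75th percentile. Median scaling only shifts each array as a whole and gave the same relative values as 75th percentile scaling to within 0.001. The deviations are from means over 6 arrays that are not the same 6 in the 2 sources.

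**Figure D4:**
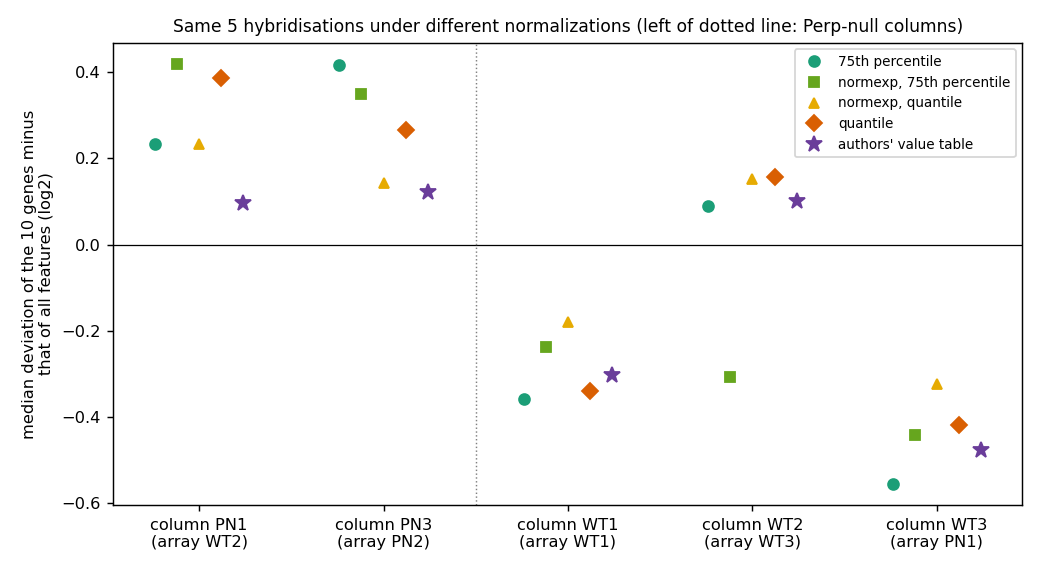
Median deviation of the 10 genes from their own means minus that of all features tested, in log2, for the 5 hybridisations present in both sources under 4 normalizations of the scanner files and in the authors' value table. Columns PN1 and PN3 lie above 0 under all 5, columns WT1 and WT3 below 0, and column WT2 lies on either side of 0.

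Other immediate early transcription factors were not called in the scanner files. Of 18 tested, 6 had the higher and 12 the lower mean in arrays labelled Perp-null, with a median of -0.06. Over all features 39.0% had the higher mean. Csrnp1, a nuclear factor of the same early class, had -1.44, -1.16 and -0.66 on arrays PN1, PN2 and PN3, against -0.58, -0.16 and -0.63 on arrays WT1, WT2 and WT3, and was the 1 gene of the list with groups apart. Of all features 3.49% were apart in that direction. Cebpd had a difference of -0.44, Klf10 of -0.25 and Jund of -0.24 (limma, adjusted p 1.0 each). The value table gave 13 of the 18 a higher mean, with a median of 0.10, and 1 was called, where 8.64% of all features were called higher: Maff, a small Maf protein of the bZIP class, named after its value was seen, with a difference of 1.25 (limma, adjusted p 0.0437).

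Maff had 9.43, 9.66 and 9.61 in columns PN1, PN2 and PN3, against 8.32, 9.02 and 7.62 in columns WT1, WT2 and WT3. As for Fos and Dusp1, its lowest value was in WT3. Csrnp1 had 10.88, 10.46 and 10.20 in columns PN1, PN2 and PN3, against 10.29, 10.37 and 8.56 in columns WT1, WT2 and WT3, again lowest in WT3 by a wide margin.

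Other early response genes and feedback inhibitors had the lower mean for 21 of 26 in the scanner files, with a median of -0.14 and none called. Trib1, a pseudokinase, had a difference of -0.67, and Dusp2, a further MAP kinase phosphatase, of -0.61 (limma, adjusted p 1.0 each), while the clock gene Per1 had -0.35 and the antiproliferative gene Btg1 -0.32. The higher mean was in Perp-null columns for 18 of 26, with a median of 0.13, none called and 7 with all Perp-null columns above (18.7% of all features were). Per1 was 1 of the 7, with 11.11, 10.62 and 10.64 in columns PN1, PN2 and PN3, against 10.61, 10.39 and 9.49 in columns WT1, WT2 and WT3 (difference 0.63, limma, adjusted p 0.211). Trib1 and Dusp2 had differences of -0.03 and 0.07 there.

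Among kinases and factors upstream of the early genes, 13 of 20 had the lower mean in the scanner files, with a median of -0.08 and none called. Elk3, an ETS partner of serum response factor, had 2.08, 2.65 and 2.44 on arrays PN1, PN2 and PN3, against 3.15, 3.19 and 2.92 on arrays WT1, WT2 and WT3, a difference of -0.70 (limma, adjusted p 1.0). Rps6ka3, a kinase downstream of ERK, also had groups apart, with a difference of -0.42. These were the 2 of 20 with groups apart, and 3.49% of all features were apart in that direction. Elk3 differed by 0.14 and Rps6ka3 by 0.23 in the value table. There 4 of the 20 were called, against 23.6% of all features, and are named after their values were seen: Mapk8 (1.04) and Rps6ka5 (0.86) were higher, and Mapk9 (-1.09) and Mrtfb (-2.12) lower, with adjusted p by limma of 0.0216, 0.0395, 0.0413 and 0.0216. Mapk8 and Mapk9 both encode Jun N-terminal kinases, and Mrtfb encodes a coactivator of serum response factor.

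Heat shock genes differed little: 8 of 15 had the lower mean in the scanner files with a median of -0.01, and 12 of 15 the higher mean in the value table with a median of 0.10, none called in either. Hspa1a, the inducible Hsp70, had 13.17, 12.33 and 12.42 in columns PN1, PN2 and PN3, against 12.59, 12.39 and 12.01 in columns WT1, WT2 and WT3, with overlapping groups. Of 15 hypoxia genes 11 had the lower mean in the scanner files and 10 in the value table. All arrays labelled Perp-null lay below the others for 3 of the 15 (Egln1, Egln3 and Slc2a1), against 3.49% of all features. Egln3, a prolyl hydroxylase induced by low oxygen, was the 1 called in the value table, against 23.6% of all features, with a difference of 1.55 (limma, adjusted p 0.022), and its difference on the scanner files was -0.80. Of 15 unfolded protein and oxidative stress genes 11 had the lower mean in the scanner files and 8 in the value table. There 1 was called, against 23.6% of all features in either direction and 14.9% lower. It was Srxn1, a sulfiredoxin named after its value was seen, at -0.65 (limma, adjusted p 0.0482). Of all features 39.0% had the higher mean in the scanner files and 51.2% in the value table.

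Markers of the cell types in the tooth germ moved between samples too. All marker genes with a probe were well above background on all 6 arrays, among them the 9 epithelial and 12 mesenchymal markers that a tooth germ should hold, and none was at 0. In the scanner files all 10 endothelial markers had the lower mean in arrays labelled Perp-null (median difference -1.04), as did all 12 mesenchymal markers (-0.59) and 7 of 8 macrophage and mast cell markers (-0.66), while all 8 skeletal muscle markers had the higher mean (0.76). By the value table the higher mean was in Perp-null columns for 8 of 10 endothelial markers (0.31), as did 9 of 12 mesenchymal ones (0.16), while 6 of 8 muscle markers had the lower mean (-0.30). In column WT3, lowest for 6 of the immediate early genes, endothelial markers deviated by -0.98 and mesenchymal markers by -0.71, while muscle markers deviated by 0.72. The endothelial deviations were 0.51, 0.02 and -0.01 in columns PN1, PN2 and PN3, against 0.45, 0.17 and -0.98 in columns WT1, WT2 and WT3. Column WT1 was low for the immediate early genes with endothelial markers high, and column PN2 was highest for them with endothelial markers near 0. The log2 summed level of the 10 endothelial markers ran from 15.36 to 15.77 in Perp-null columns and from 14.86 to 15.77 in wild-type columns, and that of the 12 mesenchymal markers from 18.36 to 19.0 and from 18.23 to 18.98. For the 8 muscle markers it ran from 12.65 to 14.12 in Perp-null columns and from 13.2 to 14.13 in wild-type columns. On the scanner arrays it ran for endothelial markers from 3.77 to 4.52 in those labelled Perp-null and from 4.55 to 4.99 in those labelled wild type, with no overlap. Taken singly, 6 of the 10 endothelial markers were apart in that direction, as were 3.49% of all features. Of all features 39.0% had the higher mean in arrays labelled Perp-null. Slide and scan coincide with that label, and arrays PN1, PN3 and WT2 go against their labels by Perp signal. Median differences in the value table were -0.01 for 9 epithelial, 0.04 for 8 macrophage and mast cell, 0.16 for 5 red blood cell and -0.09 for 7 nerve and Schwann cell markers. The part of cell makeup in the differences was not tested.

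The named genes whose 6 deviations on the scanner arrays lay closest to the median profile of the 10 were Trim28, Ptcd3, Timm10, Usp22, Sephs1 and Prmt7, ranked among 13227 genes well above background on all 6 arrays. Trim28 followed it with a mean absolute difference of 0.023, with deviations of -0.20, 0.21 and -0.07 on arrays PN1, PN2 and PN3, against -0.18, -0.01 and 0.25 on arrays WT1, WT2 and WT3. Among the 10 themselves Junb was nearest to the median profile, at 0.049, and Fosb farthest, at 0.733. None of the 6 was called in either source, with differences in the value table between -0.05 (Timm10) and 0.60 (Usp22).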

How the data were processed

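Per the labels' protocols, Cy3 was the only dye on these Agilent arrays, and the RNA was amplified before labelling. The scanner files hold linear intensity per spot, background-subtracted but not scaled between arrays, per the file headers. Agilent Feature Extraction is given as version 10.3 in the submitters' processing notes. Per the file headers, the version was 10.5.1.1 and the design's build mm9. The deposited value table is on a log2 scale. Its ranks match the unsubtracted median spot signal, and its sorted columns are nearly equal, as quantile normalization gives. What the authors did beyond that is not given in the sources used here.

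Control spots (1417) and spots with an outlier flag were left out. Log2 of the processed signal minus each array's log2 75th percentile was used for the scanner files, and the value table as given. A probe was kept if 3 or more of the 6 arrays had it well above background. For a gene with several probes the one with the highest mean was used. RefSeq names (GRCm38.p6) were found for 24844 probes. Groups were fitted with limma 3.58.1 in R 4.3.3 (lmFit, eBayes with trend), with Benjamini-Hochberg adjustment at 0.05, tested on simulated data. Normexp used the median spot signal and an offset of 50. Alternatives are in the closing section.

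For the scanner files slide and scan coincide with the labelled group, so batch and group cannot be told apart. The 5 matched value table columns hold both groups on both slides and were also fitted with slide as a block. That block does not take out position on the slide, which coincides with genotype in these 5 columns. The labels call samples biological replicates without naming animals or litters, so a p-value speaks only for the spread among these samples, which may be technical. Replicate numbers coincide with position on the slide. Deviations from group means correlated at 0.843, 0.876 and 0.193 between same-numbered scanner arrays, which were also fitted with the number as a block. Other pairs reached 0.727 and 0.495, and arrays PN1 and WT1 share high Perp signal and PN2 and WT2 low, so these values do not single out the number as the pairing. The number of arrays limits the precision.

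The genes named were the 10 genes, the label checks, up to 4 genes of smallest p per related list and the 6 most alike genes. Any others are said to be chosen after their values were seen. The members and lists were chosen with earlier results of these data known.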

Additional observations from a re-analysis of the deposited data

How the results depend on the processing

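In the scanner files 0 features were called. The count was 1 with normexp and 75th percentile scaling, 1 with array weights, 1 with the replicate block, 6289 with the authors' value table, 12078 without the 3 arrays whose Perp signal goes against the label and 32 without the 3 whose Xist and Y-linked signals do. Each of these 2 fits leaves 1 array labelled Perp-null, which is assumed to vary like the others. It was 0 to 0 without 1 array at a time. Of 219 alternative values of the 10 genes, 187 kept direction and side of the threshold, 31 changed sign and 1 passed the threshold without a change of sign. Among those that changed sign, Fosb in the value table also passed it. Filters, kept outlier spots, the eBayes options and the replicate block left each gene's difference unchanged, so its direction could not turn in those settings. Sign changed with the value table for Fos (0.72), Fosb (0.78), Jun (0.38), Egr1 (0.35), Ier2 (0.027), Dusp1 (0.52) and Nr4a1 (0.24), and with array weights for Fos (0.092), Egr2 (-0.37) and Dusp1 (0.027). It changed for Fosb with quantile normalization (0.068) and with normexp and quantile (0.047), for Junb with median scaling (-0.052), which moved the median over all features from -0.085 to -0.17, and with the mean of probes (-0.004), and for Egr2 with normexp and 75th percentile scaling (-0.008). Without the 3 arrays against the Perp label it changed for Fos (0.004), Jun (0.36), Egr1 (0.30) and Dusp1 (0.30), and Fosb passed the threshold at -1.56 (limma, adjusted p 0.00242). Without the 3 arrays against the male label it changed for Fos (0.12), Jun (0.037), Egr2 (-0.47) and Dusp1 (0.10). Without 1 array at a time the log2 difference ran between -0.68 and 0.52 for Fosb, -0.35 and 0.083 for Jun, -0.065 and 0.14 for Junb, and -0.064 and 0.48 for Egr2. The other genes kept their sign, between -0.43 and -0.052 for Fos, -0.59 and -0.086 for Egr1, -0.69 and -0.07 for Dusp1, -0.39 and -0.10 for Nr4a1, -0.20 and -0.048 for Ier2, and 0.24 and 0.43 for Atf3. The cause was not tested.

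The value table gave 6289 called features. The count was 1543 with probes well above background on all 6 arrays (where 7.61% were called and Fosb was not tested) 1 with the replicate block, where 9174 had an adjusted p under 0.10, and 1 with slide as a block over the matched columns, where Ier2 changed sign (-0.069). Without 1 column at a time it ran between 1 (without PN2) and 5919 (without PN1), with 786 without PN3, 2688 without WT3, 3203 without WT1 and 5347 without WT2. Deviations of same-numbered columns correlated at 0.407, 0.393 and -0.025, so the samples share only a number here. The replicate block gave Fosb an adjusted p of 0.054 by limma. Egr2 passed with no filter on dim probes (0.047), the mean of probes (0.0435), eBayes without trend (0.0354) and array weights (0.0216). Without 1 column at a time the difference ran between -0.073 and 0.21 for Junb and -0.065 and 0.13 for Ier2. It kept its sign for the others, between 0.338 and 1.103 for Fos, 0.233 and 0.563 for Jun, 0.198 and 0.563 for Egr1, 0.215 and 0.815 for Dusp1, 0.092 and 0.437 for Nr4a1, and 0.27 and 0.55 for Atf3. The value table alternatives were chosen after seeing the data. The cause was not tested. Fosb, near background, is the gene whose value depth of signal limits most.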
